A study of Mus musculus with 7 samples.

Results

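Transcripts of 8 genes that repair DNA during somatic hypermutation and class switching, namely Ung, Apex1, Msh6, Exo1, Polh, Rev1, Trp53bp1 and Rif1, were followed in memory B cells (MBCs) and plasma cells (PCs). The genes were taken by name from a table of 48795 genes, and each name matched 1 gene ID (Ung ENSMUSG00000029591, Apex1 ENSMUSG00000035960, Msh6 ENSMUSG00000005370, Exo1 ENSMUSG00000039748, Polh ENSMUSG00000023953, Rev1 ENSMUSG00000026082, Trp53bp1 ENSMUSG00000043909, Rif1 ENSMUSG00000036202). The 7 libraries were bulk RNA sequencing of sorted spleen cells from wild-type female C57BL/6 mice, 8 to 12 weeks old, sampled 10 days after intravenous sheep red blood cells, a T cell-dependent antigen. Both groups had first been passed over CD43 beads to enrich B cells. MBCs (3 libraries) were gated as B220+, CD138-negative, IgD-negative, CD38+ and CD273+, and PCs (4 libraries) as B220-low, CD138+ and IgD-negative. The labels do not say whether libraries came from separate animals, so p-values measure only the spread between these libraries.

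In germinal centers (GCs), cytosines in immunoglobulin genes are turned into uracil. The uracil may be copied as it stands, cut out as a base, or seen as a mismatch and removed with its neighbors. Error-prone polymerases that copy the abasic site or fill the gap leave further mutations in the variable regions. In switch regions the same lesions become double-strand breaks, whose ends must be shielded from trimming before they are joined to a new constant region. All 8 genes also serve ordinary DNA repair, so their transcripts are not particular to antibody genes. MBCs and PCs are both products of B cell activation, and the comparison asks whether the transcripts of this machinery separate them.

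Of the 8 genes, 0 were called different between PCs and MBCs. Calls came from limma (adjusted p under 0.05, and 1 or more on the log2 scale in either direction) over the 11573 genes that reached 1 TPM, a length-corrected abundance, in 3 or more libraries. All 8 genes were among them. By this rule 8.55% of all tested genes were called, 6.41% higher and 2.14% lower in PCs. At an unadjusted p under 0.05 the number was also 0 of 8, against 24.2% of all tested genes, and no p below 0.171 came from exact permutation (two-sided, all 35 ways to assign libraries, smallest possible p 0.0286). The groups overlapped for every gene, whereas 21.7% of all tested genes had no overlap. The median difference (PC minus MBC, log2 scale) was 0.23 over the 8 genes and 0.14 over all tested genes. The 95% intervals of the log2 fold changes spanned at least 2 units on the log2 scale for each of the 8, so for each of them a change of 1 in at least 1 direction lay inside the interval. Levels below are scaled TPM, given in order of replicate number (MBC 1 to 3, PC 1 to 4).

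**Figure D1:**
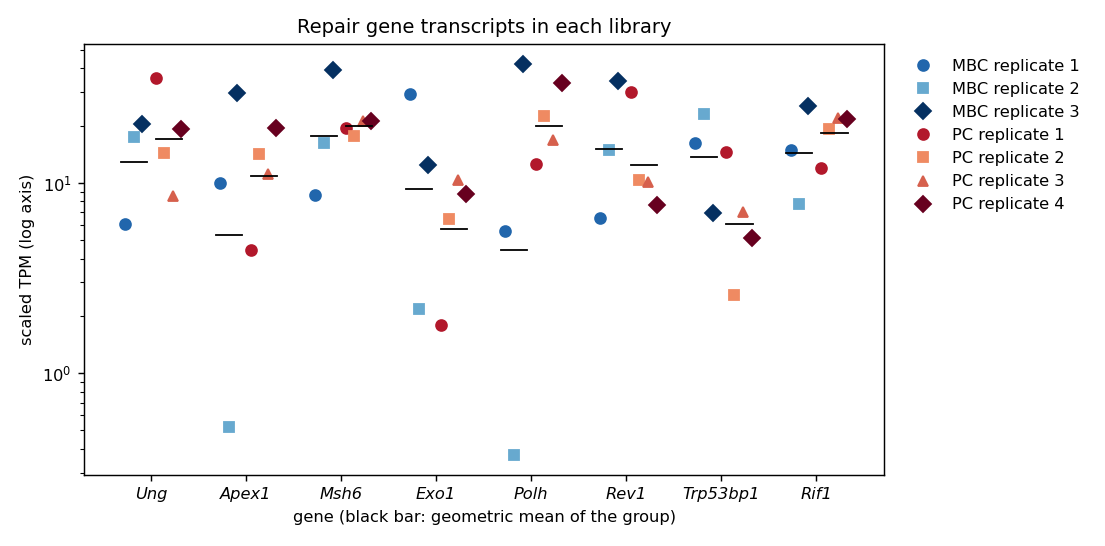
Scaled TPM (log axis) of the 8 genes in each library, MBCs in blue and PCs in red, with a black bar at the geometric mean of each group. MBC replicate 3 (dark blue diamond) is the highest library for 5 genes, and MBC replicate 2 (light blue square) is under 1 scaled TPM for Apex1 and Polh.

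The 3 MBC libraries did not resemble each other, and this bears on every value below. The library labelled MBC replicate 3 was the lowest of its group in the sort marker Cd38 (6.77 scaled TPM, against 130.3 and 185.7) and the highest in the GC gene Bcl6 (104.7, against 26.7 and 15.6). Its 10 proliferation genes summed to 1001 scaled TPM, against 165.1 and 127.3 in MBC replicates 1 and 2 and 520.4 to 737.9 in PCs, with 0 of 10 called. The 7 GC B cell genes summed to 663.7 in it, 244 and 270.1 in the other MBC libraries and 70.3 to 139.5 in PCs, with 1 called, and the 8 MBC markers to 21.9, 429.7, 624.5 and 37.5 to 55.5, with 0 called. The 8 PC markers summed to at most 336.6 in MBCs and at least 13153 in PCs, and all 8 were called higher in PCs, while 4 of 6 B cell markers were called lower. T cell markers summed to 46.8 to 132.8 in MBCs and 46.4 to 62.0 in PCs, with Cd3g and Cd8a at 0 in all MBC libraries and 2 of 4 tested (Cd3e and Trac) higher in PCs. Myeloid markers reached at most 29.0 in any library, with S100a9 at 0 in all, and 0 of 3 tested were called. Erythroid markers summed to 4524 in MBC replicate 2 and at most 122.1 elsewhere and 0 of 5 tested were called. Genes above 0 numbered 12983, 11527 and 18061 in MBC replicates 1 to 3 and 14463 to 16768 in PCs. Mitochondrial transcripts took 33.2%, 33.5% and 19.7% of TPM in MBC replicates 1 to 3 and 8.1% to 9.8% in PCs. What part these differences between libraries have in the values of the repair genes was not tested. In sorted bulk RNA, fewer cells of a type and less RNA per cell cannot be told apart.

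Depth differed too. TPM keeps no read totals, but the steps between low values of single-transcript genes put 1 TPM on a 1 kb transcript at about 6.27, 6.95 and 11.5 reads in the MBC libraries and 9.38 to 16.3 reads in PCs. If all reads came from the longest coding transcript, Apex1 rested on about 5.5 reads and Polh on about 11.5 reads in MBC replicate 2. On the same assumption every other value of the 8 genes rested on 43.4 estimated reads or more. Shorter transcripts would give fewer reads. Coding transcripts run from 466 to 7796 bases for Exo1 and from 655 to 1239 for Apex1, so low values of other genes may also rest on few reads. Counts of this size cover counting error only, since amplified reads without molecular identifiers are not independent molecules.

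The genomic positions of the 8 genes (GRCm38, GENCODE M21) show which of them share exonic sequence with a neighbor. Exons of Msh6, Rev1, Apex1 and Trp53bp1 overlap those of a gene on the opposite strand, in this order Fbxo11, Eif5b, Pip4p1 and Tubgcp4. Whether the counting used strand is not given in the sources used here, so reads there could belong to either gene. For Ung, Exo1, Polh and Rif1 no such overlap is annotated.

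Promoter sequences (250 bases before to 50 after the start site, RefSeq, GRCm38.p6) were found for 6 of the 8 genes, Exo1 and Rif1 being without an entry. They are shown for the genes whose windows hold a motif tied to cell cycle genes, Msh6 and Apex1. The motifs searched on both strands were TTCCCGC and TTGGCGC (bound by E2F factors), CCAAT (the NF-Y box) and TTTGAA (the cell cycle homology region). Either E2F motif was in 6.81% of the 32851 promoters in the table, CCAAT in 37.4% and TTTGAA in 17.9%. These shares are not matched for base content. G and C made up 71.7% of the Msh6 and 63.3% of the Apex1 window, against a median of 52.7% over all promoters. Msh6 lies on chr17:87975062-87990892, plus strand, and its promoter on chr17:87974800-87975099. That of Apex1 is on chr14:50924699-50924998, plus strand. Capitals mark the matches.
Msh6: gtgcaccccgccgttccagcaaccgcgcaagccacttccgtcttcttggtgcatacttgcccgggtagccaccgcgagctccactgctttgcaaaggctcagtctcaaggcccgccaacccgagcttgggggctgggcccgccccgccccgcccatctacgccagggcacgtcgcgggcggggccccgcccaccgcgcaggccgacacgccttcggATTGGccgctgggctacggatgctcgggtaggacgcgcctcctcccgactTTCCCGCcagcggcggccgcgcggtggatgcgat
Apex1: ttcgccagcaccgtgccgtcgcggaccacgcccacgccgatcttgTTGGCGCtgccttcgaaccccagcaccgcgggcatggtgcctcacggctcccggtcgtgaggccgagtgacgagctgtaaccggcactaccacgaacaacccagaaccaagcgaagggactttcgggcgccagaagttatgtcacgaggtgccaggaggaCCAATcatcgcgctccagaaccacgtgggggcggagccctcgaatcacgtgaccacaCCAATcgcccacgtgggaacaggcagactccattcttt
The Msh6 window holds TTCCCGC from base 17 after the start site and an inverted CCAAT at base -34. The Apex1 window holds TTGGCGC at base -205 and CCAAT at bases -45 and 13. No match to these letters was present in the windows of Ung, Polh, Rev1 and Trp53bp1. MBC replicate 3 was the highest library in Msh6 and Apex1, but also in Polh and Rev1, without a match, and in Rif1, without an entry. Any link between these motifs and the levels was not tested. These are matches of letters, not shown sites of binding.

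Uracil removal was examined first. Ung, on chr5:114130386-114139323 (plus strand), encodes the main nuclear uracil-DNA glycosylase. It was 6.05, 17.5 and 20.4 scaled TPM across the MBC libraries, against 35.5, 14.4, 8.49 and 19.2 across the PC libraries. Both the highest and the second lowest values were PC libraries, and the groups overlapped. Group means were 14.7 ± 7.59 (SD, n = 3) and 19.4 ± 11.6 (SD, n = 4). The PC minus MBC difference was 0.36 on the log2 scale (SE 0.58, 95% interval -0.94 to 1.67; limma, adjusted p = 0.749). Without PC replicate 1 the difference was 0.04.

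Smug1, a second uracil glycosylase, was named after its values were seen. Its scaled TPM reached 13.6 and 21.4 for the first 2 MBC libraries, but 0.824 for MBC replicate 3 and 0.629 to 1.24 for PCs (log2 fold change -2.10; limma, adjusted p = 0.15). Ung stood at 0.445 and 0.816 times the level of Smug1 in MBC replicates 1 and 2, both levels being per transcript length. In MBC replicate 3 the ratio was 24.8, and in PCs it ran from 6.83 to 56.5. Between Ung and Smug1, Smug1 was thus the higher in these MBC libraries and Ung in the other 5. This ratio within a library does not change when all its TPM values are divided by the same factor, as in scaled TPM. Quantile normalization, used below as an alternative, can change it.

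Apex1, on chr14:50924968-50927139 (plus strand), encodes the endonuclease that nicks DNA at the abasic site left by Ung. It was 9.95, 0.519 and 29.6 scaled TPM across the MBC libraries, against 4.45, 14.2, 11.2 and 19.5 across the PC libraries. The MBC libraries thus held both the highest and the lowest value, 57.0-fold apart, while PCs spanned 4.39-fold. The lowest, in MBC replicate 2, rested on about 5.5 estimated reads, or fewer from shorter transcripts, so the MBC fold is imprecise. Means were 13.4 ± 14.8 (SD, n = 3) and 12.3 ± 6.3 (SD, n = 4). The difference (PC minus MBC) was 0.59 on the log2 scale (SE 0.94, 95% interval -1.51 to 2.69; limma, adjusted p = 0.747). It was -0.63 without MBC replicate 2 and 1.51 without MBC replicate 3, neither with an adjusted p under 0.05. Apex2, its relative, was higher than Apex1 in MBC replicates 1 and 2 and in PC replicate 1, with Apex1 at 0.77, 0.0267 and 0.959 times its level, and lower in the other 4 libraries.

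The mismatch branch came next. Msh6 encodes a subunit of the complex that binds the uracil-guanine mismatch. Msh6 was 8.66, 16.2 and 39.1 scaled TPM across the MBC libraries, against 19.5, 17.6, 21.2 and 21.2 across the PC libraries. The PC libraries were close to each other, 1.21-fold from lowest to highest, and 2 MBC libraries lay below all of them and 1 above. Group means were 21.3 ± 15.9 (SD, n = 3) and 19.9 ± 1.72 (SD, n = 4). The PC minus MBC difference was 0.15 on the log2 scale (SE 0.50, 95% interval -0.97 to 1.26; limma, adjusted p = 0.888). The interval did not reach a fall of 1.

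Exo1, on chr1:175880581-175913489 (plus strand), encodes the exonuclease that removes the strand holding the mismatch. It was 29.5, 2.18 and 12.5 scaled TPM across the MBC libraries, against 1.79, 6.45, 10.3 and 8.80 across the PC libraries. In each group 1 library was near 2 scaled TPM, and MBC replicates 1 and 3 exceeded all PCs. The MBC mean was 14.7 ± 13.8 (SD, n = 3) and the PC mean 6.84 ± 3.72 (SD, n = 4). PCs differed from MBCs by -0.66 on the log2 scale (SE 0.81, 95% interval -2.48 to 1.16; limma, adjusted p = 0.67). Leaving out MBC replicate 1 moved it to 0.06, and leaving out MBC replicate 2 to -1.57 (adjusted p = 0.224).

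The gap left by Exo1 is filled by translesion polymerases. Polh, on chr17:46171355-46202645 (minus strand), encodes polymerase eta, which gives the mutations at A:T pairs. It was 5.58, 0.371 and 42.4 scaled TPM across the MBC libraries, against 12.6, 22.5, 16.9 and 33.4 across the PC libraries. MBC replicates 1 and 2 were below every PC library and MBC replicate 3 above every one, 114.3-fold over MBC replicate 2. That fold is imprecise, since Polh rested on about 11.5 estimated reads in MBC replicate 2. Group means were 16.1 ± 22.9 (SD, n = 3) and 21.3 ± 9.0 (SD, n = 4). Among the 2201 tested genes within 0.5 of its mean log2 level, 96.5% had a smaller range over the MBC libraries.

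Polh had the highest fold change of the 8, 1.52 (SE 0.98, 95% interval -0.67 to 3.72), with an adjusted p of 0.378 in limma. Without MBC replicate 3 it was called, at 2.75 (SE 0.68; limma, adjusted p = 0.0254), as were 23.3% of all tested genes (15.1% higher and 8.2% lower in PCs). Polh was then 1 of 8 genes called. Without MBC replicate 2, where it rested on few reads, the log2 fold change was 0.28 (adjusted p = 0.857). Sample titles carry codes with 2 prefixes, whose meaning the labels do not give. MBC replicate 1 shares its code with PC replicate 1, MBC replicate 2 with PC replicate 3, and MBC replicate 3 with PC replicate 4. Among MBCs only replicate 3 has the other prefix, so its own traits and the prefix cannot be told apart. Within the prefix shared by MBC replicates 1 and 2 and PC replicates 1 to 3, the Polh log2 fold change was 2.54 (limma, adjusted p = 0.0742). That fit again leaves out MBC replicate 3. With all libraries kept and the prefix as covariate it was 1.72 (limma, adjusted p = 0.178).

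**Figure D2:**
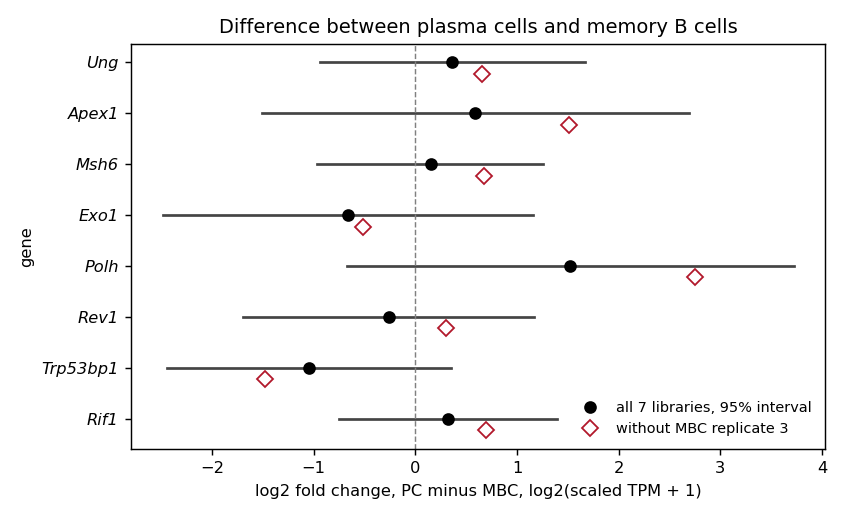
Log2 fold change (PC minus MBC, on log2(scaled TPM + 1)) of each gene with all 7 libraries (black point, line: 95% interval from limma) and without MBC replicate 3 (open red diamond). All 8 intervals include 0, and the open diamond of Polh stands at 2.75.

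Rev1, on chr1:38052786-38129801 (minus strand), inserts cytosine opposite abasic sites and recruits the other translesion polymerases. It was 6.57, 15.0 and 34.4 scaled TPM across the MBC libraries, against 30.0, 10.3, 10.1 and 7.64 across the PC libraries. A single library stood high in each group, MBC replicate 3 and PC replicate 1, and the rest lay between 6.57 and 15.0. The MBC mean was 18.7 ± 14.3 (SD, n = 3) and the PC mean 14.5 ± 10.4 (SD, n = 4). PCs differed from MBCs by -0.26 on the log2 scale (SE 0.64, 95% interval -1.69 to 1.17; limma, adjusted p = 0.838), and 0.30 without MBC replicate 3. Rev3l, the catalytic subunit of polymerase zeta, was named after its values were seen. It had no overlap between the groups, as had 21.7% of all tested genes. Rev3l stood at 26.4 to 37.1 scaled TPM in MBCs and 15.9 to 19.2 in PCs, but did not pass (log2 fold change -0.81, SE 0.34; limma, adjusted p = 0.186).

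Trp53bp1 and Rif1 act together at breaks, where 53BP1 recruits Rif1 to keep the ends from being trimmed. Trp53bp1, on chr2:121193281-121271407 (minus strand), was 16.2, 23.1 and 6.92 scaled TPM across the MBC libraries, against 14.5, 2.57, 7.0 and 5.14 across the PC libraries. Of the 8 genes it was the only one whose lowest MBC library was replicate 3, and MBC replicates 1 and 2 were above every PC library. Its group means were 15.4 ± 8.12 (SD, n = 3) and 7.30 ± 5.12 (SD, n = 4). The PC minus MBC difference was -1.04 on the log2 scale (SE 0.62, 95% interval -2.44 to 0.35; limma, adjusted p = 0.344), the lowest of the 8, and the interval did not reach a rise of 1. It was -1.48 without MBC replicate 3 (adjusted p = 0.12) and -1.41 without PC replicate 1 (adjusted p = 0.24).

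Rif1, on chr2:52072832-52122383 (plus strand), was 14.9, 7.71 and 25.3 scaled TPM across the MBC libraries, against 12.0, 19.2, 21.8 and 21.7 across the PC libraries. MBC replicate 1 lay within the PC range, replicate 2 below it and replicate 3 above it. Means were 16.0 ± 8.84 (SD, n = 3) and 18.7 ± 4.61 (SD, n = 4). The difference (PC minus MBC) was 0.32 on the log2 scale (SE 0.48, 95% interval -0.75 to 1.39; limma, adjusted p = 0.73), and the interval did not reach a fall of 1. The ratio of Rif1 to Trp53bp1 was 0.921, 0.334 and 3.66 across the MBC libraries, against 0.83, 7.47, 3.12 and 4.22 across the PC libraries. Rif1 was the more abundant transcript in MBC replicate 3 and PC replicates 2 to 4, and Trp53bp1 in the other 3 libraries.

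Few neighbors in the order of levels could be separated. Ordered by mean log2(scaled TPM + 1), MBCs ran Msh6 (4.23), Rev1, Rif1, Trp53bp1, Ung, Exo1, Apex1 and Polh (2.87). Of the 7 neighboring pairs in this order, 1 (Msh6 and Rev1) differed by more than the SD of the difference over the libraries. PCs ran Polh (4.39), Msh6, Rif1, Ung, Rev1, Apex1, Trp53bp1 and Exo1 (2.79), and 0 of 7 neighboring pairs differed beyond it. In these means of logs Polh was last in MBCs, with an SD of 2.5, although it was the highest of the 8 in MBC replicate 3 and its mean scaled TPM in MBCs (16.1) was below only those of Msh6 and Rev1. In PCs it was 0.01 above Msh6, with an SD of the difference of 0.57. Over all 8 genes the summed level was 97.5, 82.5 and 210.6 scaled TPM across the MBC libraries, against 130.3, 107.2, 107 and 136.6 across the PC libraries.

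For each of the 8 genes the log2 range over the MBC libraries was larger than the difference between the groups. The share of all tested genes for which this held was not taken, so whether it is particular to the 8 is not known. The median log2 range over the MBC libraries was 2.14 for the 8 genes and 1.73 for all tested genes, and over the PC libraries it was 1.88 and 1.05. MBC replicate 3 was the highest of all 7 libraries for 5 of the 8 genes (Msh6, Polh, Rev1, Apex1 and Rif1), whereas it was the highest for 10.3% of all tested genes. It lay above every PC library for 6 genes, which add Exo1, and within the PC range for Ung and Trp53bp1. Among PCs, replicate 1 was the highest or the lowest for 7 of the 8 genes, as it was for 67.2% of tested genes: it was the highest in Ung, Rev1 and Trp53bp1 and the lowest in Exo1, Polh, Apex1 and Rif1.

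Mki67, a proliferation marker, was 41.2, 62.0 and 268.8 scaled TPM across the MBC libraries and 187.7 to 238.4 in PCs (limma, adjusted p = 0.237). MBC replicate 3 was therefore the highest of all libraries in Mki67, as it was in the 5 genes above. Any link between proliferation and the levels of these genes was not tested.

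The other genes of these pathways were taken from lists of 56 genes, of which 55 were in the table and all 55 could be tested. In total 1 of 55 (1.82%) was called, against 8.55% of all tested genes, and 8 of 55 (14.5%) had no overlap, against 21.7%. The median log2 fold change was 0.05. The called gene was Lig3, a DNA ligase of base excision repair, at 0.971, 7.31 and 7.76 scaled TPM across the MBC libraries, against 27.9, 20.6, 28.6 and 17.2 across the PC libraries. The groups did not overlap, and PCs were higher by 2.20 on the log2 scale (SE 0.59; limma, adjusted p = 0.0492). This call lay at the threshold: it held in 6 of 21 alternatives, whose adjusted p ran from 0.0213 to 0.248 and whose fold changes ran from 1.08 to 2.68. It was lost when MBC replicate 1 (adjusted p = 0.0739) or any single PC library (0.103 to 0.138) was left out.

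By list, the 12 genes of uracil and base excision repair had 1 higher and 0 lower in PCs, with a median log2 fold change of 0.03. The 8 mismatch repair genes had 0 called and a median of -0.47, the 10 translesion genes 0 and 0.15, and the 9 genes tested of break signalling and end protection 0 and -0.51. The 8 end joining genes had 0 called with a median of 0.50, and the 8 genes of end resection and homologous recombination 0 with a median of 0.12.

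Without MBC replicate 3, 13 of the 55 genes (23.6%) were called, 7 higher and 6 lower, against 23.3% of all tested genes. These genes were named after their values were seen. Those higher in PCs included Lig3, Polq, Usp1, Hmces, H2afx and Rnf168, and the 6 lower were Smug1, Pms1, Pms2, Atm, Prkdc and Dclre1c. H2afx, the histone variant phosphorylated around breaks, stood at 17.1, 10.9 and 290.8 scaled TPM across the MBC libraries and 127.7 to 196.9 in PCs (3.56 without MBC replicate 3; limma, adjusted p = 0.000491). Hmces, which shields abasic sites, was 0.84, 6.48 and 60.4 scaled TPM across the MBC libraries and 32.6 to 39.3 in PCs (3.28; adjusted p = 0.00602). Atm, the kinase that signals breaks, stood at 28.9, 143.7 and 22.1 scaled TPM across the MBC libraries against 9.19 to 15.1 in PCs, without overlap (-2.46; adjusted p = 0.0255). With all 7 libraries none of these 3 was called (adjusted p = 0.193, 0.24 and 0.0855).

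**Figure D3:**
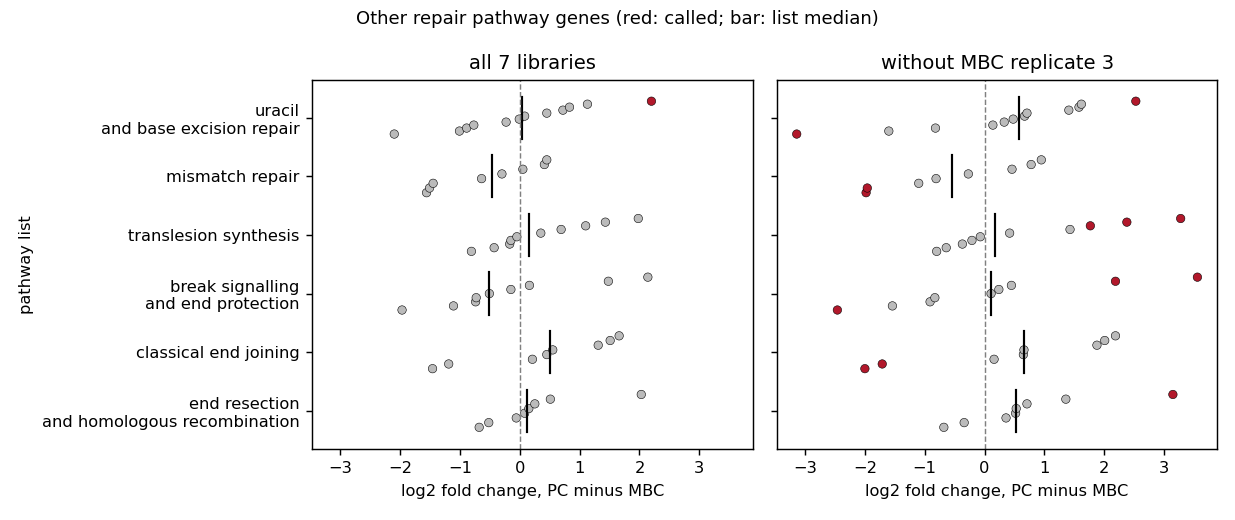
Log2 fold change (PC minus MBC) of the 55 other pathway genes by list, with all 7 libraries (left) and without MBC replicate 3 (right). Each point is a gene, red where called, and the black bar is the list median; 1 point is red on the left and 13 on the right.

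The genes whose profiles over the 7 libraries were nearest to each of the 8 were found by the root mean square difference of log2(scaled TPM + 1) after centering each profile on its mean. Rif1 had the closest neighbors, Pcbp2, Socs4 and Qser1, at 0.06 to 0.10. Msh6 was nearest to Ncaph, Metap2 and Hnrnpa3 (0.16 to 0.20) and Polh to Idi1, Ccnb2 and Kif22 (0.20 to 0.32). Ung was nearest to Dok1, Churc1 and Gm9134 (0.26 to 0.27), Exo1 to N6amt1, Ccdc181 and 2510002D24Rik (0.17 to 0.28), and Trp53bp1 to Zbtb20, Slc25a36 and Safb2 (0.23 to 0.28). Apex1 was nearest to Rad18, Hmgb3 and Ap1s1 (0.33 to 0.34), and Rev1 to Zbtb25, 6720489N17Rik and Gm15764 (0.31 to 0.41).

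The direction of these differences depended on the scaling. With TPM as deposited, whose columns sum to a fixed total and where immunoglobulin transcripts took 49.4% to 55.9% of PC and 1.65% to 3.16% of MBC libraries, the median difference was -0.91 over all tested genes and -1.02 over the 8 genes. Of the 8, 1 was then called, Trp53bp1 at -2.22 (limma, adjusted p = 0.0214). Calls over all genes were 472 higher and 3018 lower on that scale, in place of 742 and 248. They were 393 and 431 with immunoglobulin genes removed before scaling, 352 and 557 with mitochondrial genes removed as well, and 675 and 460 with quantile normalization, with 0 of the 8 genes called in each and medians of all tested genes of -0.11, -0.29 and -0.06.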

How the data were processed

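The deposited table held 1 column of TPM per library for 48795 Ensembl genes, computed by the authors and rounded to 2 decimals. The submitters' processing notes name STAR 2.5.2a, RSEM 1.3.0, DESeq2 1.18.1 and the GRCm38 build; the annotation release and strand setting are not given in the sources used here. Symbols came from GENCODE M21 (48349 IDs matched).

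Scaled TPM is TPM over a library factor (1.82, 1.48 and 2.05 in MBCs, 0.636 to 0.813 in PCs), the median, over 9305 genes detected throughout, of the ratio to each gene's geometric mean. Tests used log2(scaled TPM + 1), which understates changes of low genes, and kept genes with 3 or more libraries at 1 TPM, with limma 3.58.1 in R 4.3.3 (mean-variance trend, no covariate) and Benjamini-Hochberg adjustment. The fit and the depth estimate were tested on simulated data. Between 76.2% and 83% of the low values lay within 0.15 reads of a whole number, where 30% would by coincidence for a unit fixed beforehand. The unit was fitted to these same values, so the share expected after fitting is not known.

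All 8 genes are named, as are the called genes of each pathway list that can be reported here, Mki67 and the 3 nearest profiles of each of the 8. Smug1, Apex2 and Rev3l were added, and the depth estimate made, after values were seen. The members and lists were chosen with earlier results of these data known. No libraries were copies: at least 99.3% of genes above 0 differed in any pair. Of 4 title codes, 3 occur in both groups, and the labels do not say what they mark. Deviations of libraries from their group means had correlations of -0.083 to 0.109 for the same number and -0.004 to 0.222 for the same code. Pairs with neither in common ran from -0.176 to 0.152, so this did not settle whether libraries are paired. The test had no block, and fits with either block were alternatives. Values of some genes are not reported here. A search of protein sequences was planned and not run. Python 3.11.15, pandas 2.3.3, numpy 2.4.6 and matplotlib 3.10.9 were used for the other steps.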

Additional observations from a re-analysis of the deposited data

Results flagged for a closer look

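Dixon's ratio (the gap from an extreme library to its neighbor over the range of the group) passed its 95% limit in 3 of 48 results examined over the 4 PC libraries. At 1 in 20, chance would give about 2.4. Groups of 3 were not examined. The Rev1 value of PC replicate 1, 30.0 scaled TPM against 7.64 to 10.3, gave a ratio of 0.879. The summed classical end joining genes were also highest in PC replicate 1, at 145.1 scaled TPM against 65.4 to 75.2 (0.876). Mki67 was 238.4 scaled TPM in PC replicate 3 and 187.7 to 195.2 in the others (0.852). Without PC replicate 1 the log2 fold change of Rev1 was -0.65 (limma, adjusted p = 0.596).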

How the results depend on the processing

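Of 176 values of the 8 genes under 22 alternatives (the exact permutation test included), 159 kept their direction and their side of the call, 15 changed sign and 2 became calls (Polh without MBC replicate 3 and Trp53bp1 with TPM as deposited, which raised the genes called lower in PCs to 1). The permutation test and the fits with all genes above 0, a 5 TPM minimum or no variance trend leave the difference itself unchanged. Direction could therefore not change in them. In 19 of 21 fits none of the 8 was called. With TPM as deposited, Ung, Msh6, Apex1 and Rif1 changed sign, to -0.88, -1.11, -0.53 and -0.93. With immunoglobulin genes removed Msh6 was -0.13, and with mitochondrial genes removed as well Ung, Msh6 and Rif1 were -0.11, -0.33 and -0.16. Within the more frequent title prefix Rev1 was 0.52. Leaving out each library gave ranges of -0.16 to 0.68 for Ung, -0.36 to 0.68 for Msh6, -1.57 to 0.06 for Exo1, 0.28 to 2.75 for Polh, -0.83 to 0.30 for Rev1, -0.63 to 1.51 for Apex1, -1.48 to -0.70 for Trp53bp1 and -0.12 to 0.70 for Rif1, with 0 to 1 of the 8 genes called higher and 0 lower, and 0 to 7 pathway genes higher and 0 to 6 lower. Over all tested genes these fits called 456 to 1624 higher and 93 to 881 lower.

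Of the other pathway genes, 0 were higher and 15 lower with TPM as deposited, 0 and 2 with immunoglobulin genes removed, 0 and 4 with mitochondrial genes removed as well, and 5 and 3 within the more frequent prefix. In the same order all tested genes gave 472 and 3018 of 11573, 393 and 431 of 11344, and 352 and 557 of 11329. Within the prefix they gave 1014 and 448 of 10250, with 53 pathway genes tested in place of 55. No pathway gene was higher with a pseudocount of 0.1, all genes above 0 tested, no variance trend, sample weights, the title code block or the prefix as covariate. In those fits 434 to 796 of all tested genes were higher. With the replicate block, 0 pathway genes and 0 of the 8 genes were called, and 390 higher and 60 lower over all genes in place of 742 and 248. The deviations of same-numbered libraries from their group means had correlations of 0.109, -0.04 and -0.083 across genes, and those of libraries sharing a title code 0.109, -0.004 and 0.222. Pairs sharing neither ran from -0.176 to 0.152. The PC library of the same code had the highest correlation for MBC replicates 1 and 3, but not for MBC replicate 2. The cause of the shifts in calls was not tested. If reads came from the longest coding transcripts, depth limits Apex1 and Polh in MBC replicate 2 most. With 3 and 4 libraries, a miss of the threshold does not show equal levels.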
